A study of Mus musculus with 6 samples.

Results

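The astrocyte markers described here were 10 genes widely used to recognise astrocytes in brain tissue (Gfap, Vim, Aqp4, Gja1, Glul, Aldh1l1, Aldoc, S100b, Fgfr3 and Sox9), taken by gene symbol from the matrix of hippocampal gene expression. All 10 of 10 were listed, among 14477 genes in all. RNA-seq had been run on hippocampal tissues of 3 Phf21bΔ4/Δ4 mice (mice 2, 3 and 6) and 3 Phf21b+/+ mice (mice 5, 7 and 8), none of them treated and all sampled at baseline. The Phf21bΔ4/Δ4 line carries a CRISPR/Cas9 disruption of exon 4 of Phf21b, which encodes a histone reader protein of the PHD finger family. The disruption is present in every cell of the body and lowers Phf21b expression without abolishing it, so no result here belongs to astrocytes lacking the gene alone. The line was kept on a C57BL/6J background. Unless otherwise specified, the paper used young adult littermates of both sexes in its experiments. The sex of the mice used for RNA-seq is not stated, and the labels give neither the sex nor the age of each mouse. The comparison asks whether the RNA of astrocytes differed between the genotypes.

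Astrocytes are the main supporting glia of the grey matter. Their fine processes wrap synapses and take up glutamate and potassium, and their endfeet on blood vessels carry most of the water channels of the brain. The classical markers report on different parts of this cell: the intermediate filaments Gfap and Vim are raised when astrocytes become reactive and vary between regions, while Aldh1l1, Glul, Aldoc and Sox9 mark most astrocytes whatever their state. Some of the markers are shared with other cells. Vim is also made by ependymal, endothelial, mural and leptomeningeal cells, S100b and Glul by oligodendrocytes, and Aqp4, S100b and Sox9 by ependymal cells.

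Both intermediate filament genes and, as a contrast, Aldh1l1 are shown by the sequence around their start sites, because Gfap and Vim were lower in every Phf21bΔ4/Δ4 mouse and Aldh1l1 was not. RefSeq promoter windows on build GRCm38.p6 were matched for 8 of the 10 markers, in 10 windows. Aqp4 and Sox9 were not matched. The sequences run from 200 bases before to 10 bases after the annotated start, 5′ to 3′ on the strand of the gene. They lie at chr11:102897191-102897400 on the minus strand for Gfap, at chr2:13574111-13574320 on the plus strand for Vim and at chr6:90550593-90550802 on the plus strand for Aldh1l1. Capitals mark, on either strand, the letters TTGGC (the core of nuclear factor I sites), CCAAT (the core of nuclear factor Y sites), TATAAA (the motif that fixes the start of transcription in some genes) and TTCNNNGAA (the STAT core). TTGGC and CCAAT overlap where ATTGGC is written.
Gfap: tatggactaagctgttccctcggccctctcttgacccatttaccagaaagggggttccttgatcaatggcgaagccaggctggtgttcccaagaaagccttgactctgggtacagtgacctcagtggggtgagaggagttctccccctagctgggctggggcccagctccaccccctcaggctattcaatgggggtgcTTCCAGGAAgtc
Vim: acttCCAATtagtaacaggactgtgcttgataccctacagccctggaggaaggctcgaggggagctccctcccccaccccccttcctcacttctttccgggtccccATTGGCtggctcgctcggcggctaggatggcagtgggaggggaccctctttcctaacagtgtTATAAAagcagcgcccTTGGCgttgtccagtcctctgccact
Aldh1l1: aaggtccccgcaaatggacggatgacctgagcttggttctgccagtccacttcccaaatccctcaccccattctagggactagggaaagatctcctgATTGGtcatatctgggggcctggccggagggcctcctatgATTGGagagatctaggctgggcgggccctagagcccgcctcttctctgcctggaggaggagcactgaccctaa
In the windows of 300 bases, from 250 before to 50 after the start, Gfap held 1 TTCNNNGAA match, which began at base -2 counted from the start, and none of the other motifs. Vim held 2 TTGGC matches, 2 CCAAT matches and a TATAAA at base -32, the only TATAAA among the 10 windows of the markers. Aldh1l1 held 2 CCAAT matches and no TATAAA. Of all 32851 RefSeq windows of the same length, 46.7% held TTGGC, 37.4% CCAAT, 13.6% TATAAA and 8.30% TTCNNNGAA. The windows of Gfap and Vim therefore shared none of these motifs with each other, and a match is a run of letters, not a binding site.

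Values are given as CPM (read counts scaled to the size of the library), computed from the log2 CPM matrix, and differences as log2 fold changes of Phf21bΔ4/Δ4 against Phf21b+/+ with the standard error (SE) of limma. A gene was called when its false discovery rate (FDR) over all 14477 genes was under 0.1 and its fold change exceeded 1.3. Libraries held 20495605 to 24881257 reads on listed genes, and the markers had 410 to 42212 reads each in a library, so counting error was small beside the spread between mice. Phf21b itself, on chromosome 15, was at 2.15, 3.57 and 3.87 CPM in Phf21bΔ4/Δ4 mice 2, 3 and 6 and at 6.50, 5.23 and 6.47 CPM in Phf21b+/+ mice 5, 7 and 8. Every Phf21bΔ4/Δ4 library was below every Phf21b+/+ library, which is the direction that the paper reports for this line. The difference did not reach the threshold (log2 fold change -0.96, SE 0.26, FDR 0.14). All 10 markers were at 17.8 CPM or more in every library. The glutamate transporter gene Slc1a2, a further astrocyte gene, ranged from 2832 to 4759 CPM, so astrocyte RNA was plain in each of the 6 mice.

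Of the 10 astrocyte markers, only Aqp4 was called, and it was lower in Phf21bΔ4/Δ4 mice. Over all genes, 96 were called lower (0.663%) and 176 were called in either direction (1.22%). Gfap, Vim and Aqp4 did not overlap between the genotypes, with all Phf21bΔ4/Δ4 mice below all Phf21b+/+ mice. The share of all genes with that pattern was 16%. The same 3 markers were those with an unadjusted p under 0.05, against 23.6% of all genes, so the count of 3 among 10 was near the background. The log2 fold change was below 0 for 7 markers and above 0 for 3, with a median of -0.145 beside -0.019 over all genes, and Gja1 and Aldoc changed sign under other scalings of the libraries. Fewer astrocytes, less RNA per astrocyte and a different make-up of the dissected tissue cannot be told apart in these bulk libraries. The p-values set the difference between the genotypes against the spread between mice of the same genotype. Nothing in the labels says how the 3 mice of a genotype were dissected or processed. A difference in handling shared by the mice of a genotype could not be told apart from genotype.

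**Figure D1:**
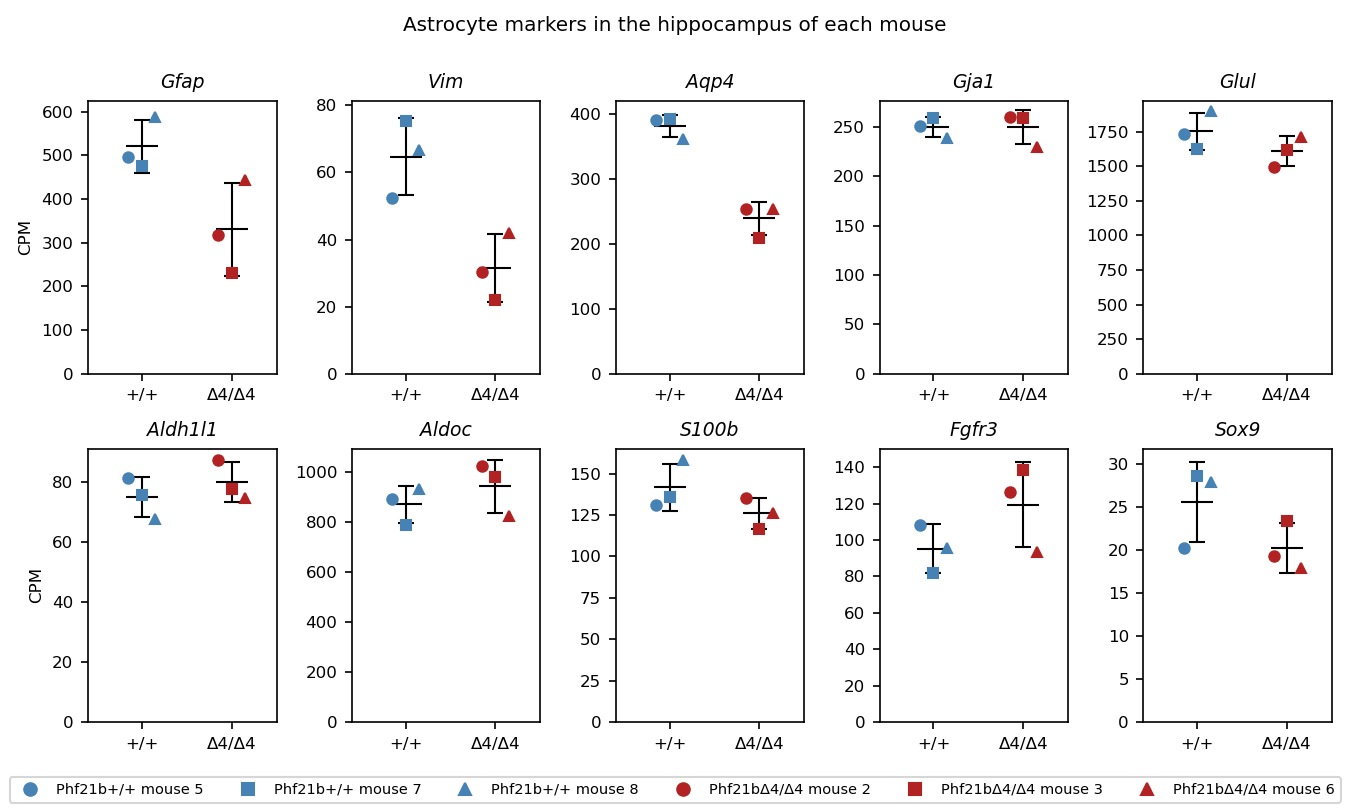
CPM of each of the 10 astrocyte markers (vertical axes, each from 0) in the 3 Phf21b+/+ and the 3 Phf21bΔ4/Δ4 mice; points are mice, the horizontal line is the mean and the bar is 1 SD. Gfap, Vim and Aqp4 separate the genotypes, whereas the points of Gja1, Glul, Aldh1l1, Aldoc, S100b, Fgfr3 and Sox9 overlap.

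The water channel gene Aqp4 and the gap junction gene Gja1 were set side by side after the values were seen. They are the called marker and the marker with the smallest log2 fold change in size. Aqp4 (chromosome 18, start 15389496, end 15410982, GRCm38) encodes the water channel concentrated in astrocyte endfeet. It was at 254, 210 and 255 CPM in Phf21bΔ4/Δ4 mice 2, 3 and 6 and at 391, 393 and 362 CPM in Phf21b+/+ mice 5, 7 and 8. The groups were far apart, and the gap between them was wider than the range within either. The means were 240 ± 25.7 CPM and 382 ± 17.2 CPM (SD, n = 3 each), 37.3% lower in Phf21bΔ4/Δ4 mice (log2 fold change -0.68, SE 0.10, 95% interval -0.92 to -0.44, FDR 0.067). The call stood close to the threshold. It was lost when any mouse other than Phf21bΔ4/Δ4 mouse 6 was left out (FDR 0.11 without Phf21bΔ4/Δ4 mouse 3, 0.20 without Phf21bΔ4/Δ4 mouse 2, 0.12, 0.24 and 0.25 without Phf21b+/+ mice 5, 7 and 8) and became an FDR of 0.021 without Phf21bΔ4/Δ4 mouse 6 (a fit that called 19.5% of all genes), while the log2 fold change stayed between -0.72 and -0.59. An exact two-sided permutation test on Aqp4 alone gave p = 0.1, the smallest that 3 against 3 mice allow. Any gene without overlap gives this value, so it only restates the lack of overlap. Of all genes, 16% were lower and 15% higher in Phf21bΔ4/Δ4 mice without overlap.

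Gja1 (chr10:56377330-56402513) encodes the main connexin of astrocyte gap junctions, which couple astrocytes into networks. Its CPM was 260, 259 and 230 in Phf21bΔ4/Δ4 mice 2, 3 and 6 and 251, 259 and 239 in Phf21b+/+ mice 5, 7 and 8. The Phf21b+/+ range lay inside that of Phf21bΔ4/Δ4 mice, and the log2 fold change was 0.00 (SE 0.08, 95% interval -0.20 to 0.19, FDR 0.99). The ratio of Aqp4 to Gja1, which does not depend on how libraries are scaled, was 0.976, 0.811 and 1.11 in Phf21bΔ4/Δ4 mice and 1.56, 1.51 and 1.51 in Phf21b+/+ mice. With Gja1 so alike in the genotypes, this ratio restates the difference in Aqp4.

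Vim (chr2:13573927-13582826) encodes vimentin, an intermediate filament protein that astrocytes keep at a low level and raise on activation. It had the most negative log2 fold change of the 10 markers. Its CPM was 30.4, 22.0 and 42.1 in Phf21bΔ4/Δ4 mice 2, 3 and 6 and 52.3, 75.2 and 66.6 in Phf21b+/+ mice 5, 7 and 8. Phf21bΔ4/Δ4 mouse 6 was the highest of its genotype and Phf21b+/+ mouse 5 the lowest of its own, and they still did not overlap. The means were 31.5 ± 10.1 and 64.7 ± 11.6 CPM (log2 fold change -1.07, SE 0.25, 95% interval -1.66 to -0.48), and the FDR of 0.13 missed the threshold. Without Phf21bΔ4/Δ4 mouse 6 the FDR was 0.023 with a log2 fold change of -1.31, and with mice weighted by their fit to the rest it was 0.011. Both settings called Vim, but over all genes they called 19.5% (without mouse 6) and 24.5% (weighted mice), against 1.22% with all mice weighted equally.

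Gfap (chr11:102887336-102900912) encodes the intermediate filament protein by which astrocytes are usually stained. The gene was at 317, 230 and 443 CPM in Phf21bΔ4/Δ4 mice 2, 3 and 6 and at 497, 475 and 589 CPM in Phf21b+/+ mice 5, 7 and 8. As for Vim, Phf21bΔ4/Δ4 mouse 6 was nearest to the other genotype, and the groups did not overlap. The means were 330 ± 107 and 520 ± 60.1 CPM (log2 fold change -0.70, SE 0.23, 95% interval -1.25 to -0.15, FDR 0.17). Gfap was called without Phf21bΔ4/Δ4 mouse 6 (log2 fold change -0.94, FDR 0.029) and with weighted mice (FDR 0.014), the settings that called 19.5% and 24.5% of all genes, and in none of the fits that left out another mouse. The exact permutation test gave p = 0.1 for Gfap and for Vim, the value that any gene without overlap gives, so it adds nothing to the lack of overlap.

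Among the closest relatives of these filament genes, Nes, Synm and Ina were listed and Des and Prph were not. Nestin, encoded by Nes, partners with vimentin in stem cells and reactive glia, and its log2 fold change was -0.07 (SE 0.17, FDR 0.81). Synm, which encodes synemin, another partner of these filaments, had a log2 fold change of 0.10 (SE 0.14, FDR 0.68). Ina, a neuronal filament gene, had 0.26 (SE 0.15, FDR 0.31). The neurofilament genes Nefl and Nefm, of the neuron list, had 0.12 (SE 0.15, FDR 0.62) and 0.57 (SE 0.14, FDR 0.14). None of the 7 filament genes passed the test, Vim and Gfap included.

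The metabolic markers did not differ detectably. Glul (chr1:153899944-153909723) encodes glutamine synthetase, which turns glutamate taken up from synapses into glutamine, and was the most abundant marker, also per kilobase of exon. It was at 1495, 1618 and 1714 CPM in Phf21bΔ4/Δ4 mice and at 1737, 1627 and 1897 CPM in Phf21b+/+ mice, in the same order of mice as above. The groups overlapped, with a log2 fold change of -0.12 (SE 0.12, 95% interval -0.41 to 0.17, FDR 0.54). Glul overlaps the listed gene Teddm2 on the opposite strand, and whether the counting used strand was not stated.

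Aldh1l1 (chr6:90486427-90600203) encodes the folate enzyme formyltetrahydrofolate dehydrogenase, often taken as the marker that labels astrocytes most evenly. Its CPM was 87.3, 77.5 and 74.6 in Phf21bΔ4/Δ4 mice and 81.1, 75.6 and 67.7 in Phf21b+/+ mice. These ranges overlapped. The log2 fold change was 0.09 (SE 0.10, 95% interval -0.14 to 0.33, FDR 0.56), and it was -0.03 when Phf21b+/+ mouse 5 was the only control.

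Aldoc (chr11:78322968-78327781) encodes the brain isoform of the glycolytic enzyme aldolase. It was at 1022, 981 and 823 CPM in Phf21bΔ4/Δ4 mice and at 893, 788 and 931 CPM in Phf21b+/+ mice. The mice of both genotypes were interleaved, with a log2 fold change of 0.11 (SE 0.13, 95% interval -0.19 to 0.41, FDR 0.59). Its sign turned under quantile normalization, which gave -0.18, so no direction can be given for Aldoc.

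S100b (chr10:76253853-76261159) encodes a small calcium-binding protein of astrocytes and some oligodendrocytes. It was at 135, 117 and 126 CPM in Phf21bΔ4/Δ4 mice and at 131, 136 and 158 CPM in Phf21b+/+ mice. The groups overlapped through Phf21bΔ4/Δ4 mouse 2, and the log2 fold change was -0.17 (SE 0.10, 95% interval -0.40 to 0.07, FDR 0.33). S100b overlaps the listed gene Dip2a on the opposite strand, with the same reserve as for Glul.

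Sox9 (chr11:112782224-112787760), a transcription factor that switches on the glial fate and stays on in astrocytes, was the least abundant marker, also per kilobase of exon. Its CPM was 19.3, 23.4 and 17.8 in Phf21bΔ4/Δ4 mice and 20.2, 28.6 and 27.8 in Phf21b+/+ mice. Phf21b+/+ mouse 5 lay inside the Phf21bΔ4/Δ4 range, and the log2 fold change was -0.33 (SE 0.17, 95% interval -0.74 to 0.07, FDR 0.27). With weighted mice, where 24.5% of all genes were called, Sox9 was called lower (log2 fold change -0.42, FDR 0.062).

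Fgfr3 (chr5:33721674-33737068) encodes the fibroblast growth factor (FGF) receptor that mature astrocytes express. It had the most positive log2 fold change of the markers. Its CPM was 127, 138 and 93.6 in Phf21bΔ4/Δ4 mice and 108, 81.7 and 95.6 in Phf21b+/+ mice. Phf21bΔ4/Δ4 mouse 6 was within the Phf21b+/+ range, and the log2 fold change was 0.32 (SE 0.17, 95% interval -0.09 to 0.73, FDR 0.29). Without that mouse, where 19.5% of all genes were called, Fgfr3 was called higher (log2 fold change 0.48, FDR 0.065).

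**Figure D2:**
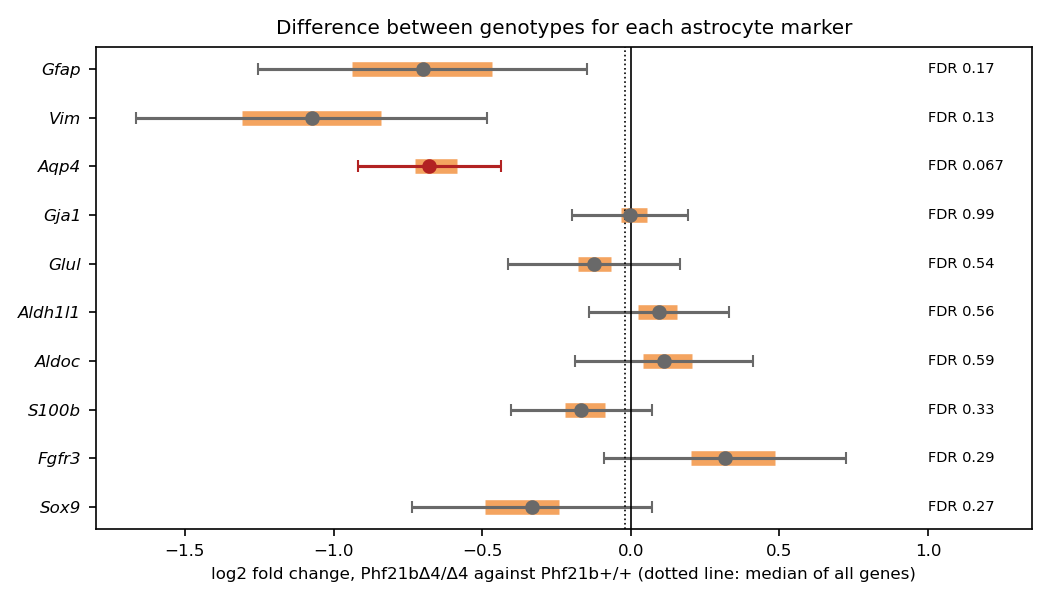
Log2 fold change of Phf21bΔ4/Δ4 against Phf21b+/+ mice (horizontal axis) for the 10 astrocyte markers; points are the limma estimates, thin bars the 95% intervals and thick bars the range when 1 mouse at a time was left out. Aqp4, in red, is the only marker called (FDR 0.067), and the intervals of Gfap, Vim and Aqp4 alone leave out 0.

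Per kilobase of annotated exon, a scale on which genes can be compared with each other, the markers spanned a wide range of levels in Phf21b+/+ mice. Glul was highest at 528 ± 40.8 CPM per kilobase, followed by Aldoc at 267 ± 22.8, Gfap at 123 ± 14.3 and S100b at 95.5 ± 9.70. Aqp4 came next at 61.3 ± 2.77 CPM per kilobase, then Gja1 at 24.4 ± 0.990. Aldh1l1 at 16.6 ± 1.49, Vim at 13.6 ± 2.44 and Fgfr3 at 13.3 ± 1.87 could not be ordered, since their intervals of 1 SD overlapped, and Sox9 was lowest at 6.18 ± 1.12 CPM per kilobase. In Phf21bΔ4/Δ4 mice Gfap stood at 78.3 ± 25.3 CPM per kilobase and S100b at 85.0 ± 6.23, so these neighbours could no longer be ordered. Vim stood at 6.64 ± 2.12 CPM per kilobase in Phf21bΔ4/Δ4 mice, beside Sox9 at 4.88 ± 0.695, and Fgfr3 stood apart from it at 16.7 ± 3.24.

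Ratios within a library, which need no scaling, are given for the 3 markers that separated the genotypes over genes that did not, so they were chosen after the values were seen and restate that choice. Aqp4 to Aldh1l1 was 2.71 to 3.41 in Phf21bΔ4/Δ4 mice and 4.82 to 5.35 in Phf21b+/+ mice, with no overlap. Vim to Aldh1l1 was 0.284 to 0.564 and 0.645 to 0.996, again apart. Gfap to Aldh1l1 was 2.97 to 5.94 and 6.13 to 8.69, apart by little. Gfap to Gja1 overlapped, since Phf21bΔ4/Δ4 mouse 6 was at 1.93 and Phf21b+/+ mouse 7 at 1.83. Against the glutamate transporter gene Slc1a3, the ratios of Gfap, Aqp4 and Vim each separated the genotypes (at most 0.546, 0.314 and 0.0519 in Phf21bΔ4/Δ4 mice, and at least 0.672, 0.436 and 0.0714 in Phf21b+/+ mice).

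**Figure D3:**
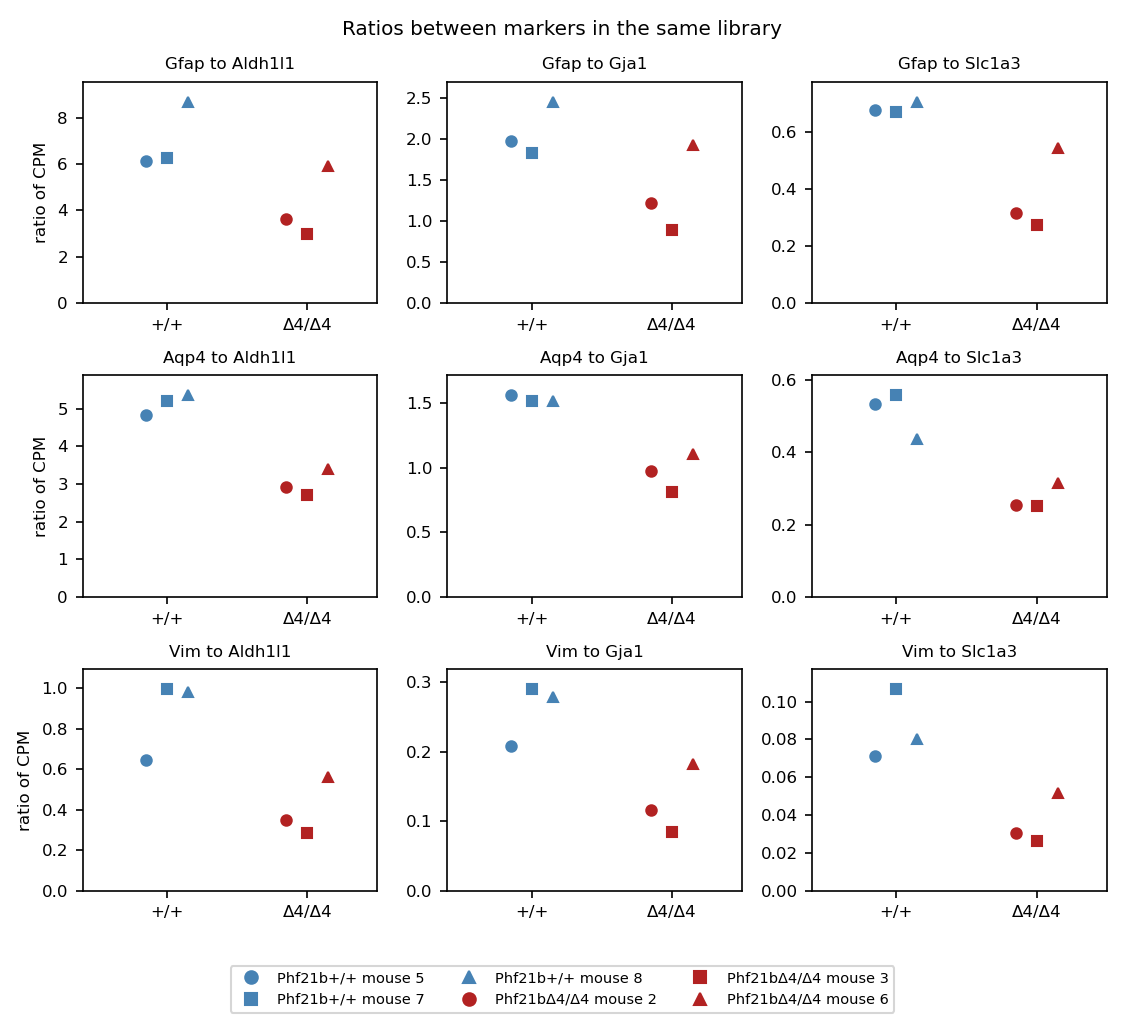
Ratio of the CPM of Gfap, Aqp4 and Vim (rows) to that of Aldh1l1, Gja1 and Slc1a3 (columns) within each library; points are mice. The genotypes are apart in each panel except Gfap to Gja1, where Phf21bΔ4/Δ4 mouse 6 (1.93) lies above Phf21b+/+ mouse 7 (1.83).

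Beyond the markers, 157 other genes had been put into 10 lists by astrocyte function, state or region, by pathway or as relatives of the markers, and 147 of them were in the matrix. Some of them are also expressed by other cells. Of these, 1 was called, the transcription regulator gene Id3, which was lower in Phf21bΔ4/Δ4 mice. The log2 fold change was below 0 for 88 and above 0 for 59, with a median of -0.048. With no overlap, 27 genes were lower and 10 were higher in Phf21bΔ4/Δ4 mice, and 30 had an unadjusted p under 0.05. Over all genes, 16% were lower without overlap, 15% were higher without overlap and 23.6% had such a p. limma voom on recovered reads also called Id3 alone. By list, an unadjusted p under 0.05 was reached by 5 of 17 genes of transmitter uptake, 4 of 14 ion and water genes, 5 of 25 lipid and secreted protein genes, 5 of 22 receptors, 3 of 19 transcription factors, 4 of 14 FGF genes, 2 of 23 reactive genes and 3 of 21 close relatives of the markers. The lists were written with earlier results of these data known, so their counts are descriptions.

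The genes of transmitter uptake and amino acid metabolism, which clear glutamate and GABA from synapses, included none that was called among 17, with a median log2 fold change of -0.103. Slc1a2, which encodes the main glutamate transporter of the forebrain, had a log2 fold change of 0.24 (SE 0.20, FDR 0.46). Slc1a3, which encodes the other astrocyte glutamate transporter, had 0.22 (SE 0.12, FDR 0.30). The most negative gene was Etnppl, a phospholyase gene specific to astrocytes in brain (log2 fold change -0.82, SE 0.23, FDR 0.14). It did not pass the test, although it did not overlap between the genotypes.

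The list of ion, water and gap junction genes is the nearest in function to Aqp4, and none of its 14 genes was called (median log2 fold change 0.012). Mlc1, Hepacam, Dtna and Dag1 belong to the membrane complexes of the endfoot, where Aqp4 is anchored. Mlc1 had a log2 fold change of -0.27 (SE 0.09, FDR 0.17) and Dtna one of -0.30 (SE 0.11, FDR 0.17), both without overlap. Dag1, the dystroglycan gene, had 0.22 (SE 0.10, FDR 0.23). The potassium channel gene Kcnj10, which acts beside Aqp4 in endfeet, had -0.23 (SE 0.19, FDR 0.47). The extremes of the list were Gjb2, a connexin gene also of the leptomeninges (log2 fold change -0.93, SE 0.38, FDR 0.21), and the potassium channel gene Kcnj16 (0.58, SE 0.34, FDR 0.33). Other aquaporin genes gave no match to Aqp4. Aqp9 had a log2 fold change of 0.15 (SE 0.32, FDR 0.78), and Aqp11 one of 0.14 (SE 0.25, FDR 0.74). Aqp1, the aquaporin of the choroid plexus, was at 103 CPM in Phf21b+/+ mouse 7, at 5.30 CPM in mouse 8 and at most 0.506 CPM in the other mice.

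Genes of lipid and energy metabolism and secreted proteins held no call among 25 (median -0.022). Apoe, the main lipid carrier of the brain, was at 1408, 1276 and 1285 CPM in Phf21bΔ4/Δ4 mice and at 1578, 1835 and 1650 CPM in Phf21b+/+ mice. The groups did not overlap, but the test did not pass (log2 fold change -0.35, SE 0.12, FDR 0.17). Clu, another secreted chaperone and lipid-binding protein gene, had a log2 fold change of -0.37 (SE 0.14, FDR 0.18). The extremes were Thbs2, a thrombospondin gene that promotes synapse formation (-0.95, SE 0.26, FDR 0.14), and the protease gene Htra1 (0.34, SE 0.09, FDR 0.14). Receptors and membrane proteins held no call among 22 (median -0.002), between Fgfr2 at -0.56 (SE 0.19, FDR 0.17) and the cytokine receptor gene Lifr at 0.60 (SE 0.20, FDR 0.17).

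Among the 19 transcription factors of astrocytes, Id3 was called. Id proteins bind basic helix-loop-helix factors and keep them from DNA, and they are classical targets of bone morphogenetic protein signalling in astrocytes. Id3 (chr4:136143497-136145755) was at 18.5, 18.2 and 20.9 CPM in Phf21bΔ4/Δ4 mice 2, 3 and 6 and at 36.1, 44.0 and 31.4 CPM in Phf21b+/+ mice 5, 7 and 8. The groups were apart, with a log2 fold change of -0.94 (SE 0.14, 95% interval -1.27 to -0.61, FDR 0.067). Like that of Aqp4, the call held in 1 of the 6 fits that left out a mouse (FDR 0.022 to 0.23). Its relatives Id4 and Id1 were also without overlap, at log2 fold changes of -0.75 (SE 0.16, FDR 0.13) and -0.91 (SE 0.33, FDR 0.18), and neither passed the test. The nuclear factor I genes, which work with Sox9 in astrocyte formation, lay near 0 or above it: Nfia at -0.01 (FDR 0.96), Nfib at 0.06 (FDR 0.76) and Nfix at 0.17 (FDR 0.59). The list had a median of -0.115, and its most positive gene was Gli2 (0.42, SE 0.20, FDR 0.25).

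FGF ligands and the genes that respond to FGF signalling were taken as the pathway of Fgfr3, and none of the 14 was called (median 0.178, above that of all genes). Etv5, a transcription factor gene induced by FGF, was at 60.1, 86.4 and 53.5 CPM in Phf21bΔ4/Δ4 mice and at 42.4, 29.0 and 37.7 CPM in Phf21b+/+ mice. It did not overlap and did not pass the test (log2 fold change 0.86, SE 0.21, FDR 0.13). Dusp6, a feedback phosphatase gene of the pathway, had 0.45 (SE 0.15, FDR 0.17), and the ligand gene Fgf9 had 0.44 (SE 0.14, FDR 0.16). The feedback genes Spry1, Spry2 and Spry4 had -0.37, 0.21 and 0.29 (FDR 0.23, 0.47 and 0.41), so they lay on both sides of 0. The ligand gene Fgf1 had -0.56 (SE 0.13, FDR 0.13). The other receptor genes, Fgfr1 and Fgfr2, had 0.23 (SE 0.12, FDR 0.29) and -0.56 (SE 0.19, FDR 0.17).

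Genes raised in reactive astrocytes were of interest beside Gfap and Vim. Of 29 such genes 23 were listed, and Lcn2, Steap4, Ptx3, Clcf1, Timp1 and Aspg were not. None was called, 16 had a log2 fold change below 0, and the median was -0.461, the lowest of the astrocyte lists. Many of these genes were at a few CPM, where the spread between mice is wide. C3, the complement gene of one reactive state, was the most negative at 1.77, 0.286 and 2.61 CPM in Phf21bΔ4/Δ4 mice and 2.99, 8.19 and 6.56 CPM in Phf21b+/+ mice (log2 fold change -2.30, SE 0.84, FDR 0.18). Serping1 had -1.22 (SE 0.36, FDR 0.15), and Gbp2 had -0.69 (SE 0.30, FDR 0.22). Serpina3n, one of the genes most strongly raised in reactive astrocytes, overlapped fully (log2 fold change -0.01, SE 0.30, FDR 0.98), and Osmr was the most positive gene above the level limit for named genes (0.36, SE 0.27, FDR 0.43). The summed CPM of the list was 305 to 415 in Phf21bΔ4/Δ4 mice and 392 to 442 in Phf21b+/+ mice, which overlapped.

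Astrocytes of the telencephalon and of deeper regions differ in some genes, and both short lists were without a call. Of the 4 telencephalic genes 3 had a log2 fold change above 0, and the list median was 0.272. The exception was Emx2 (log2 fold change -0.10, SE 0.19, FDR 0.76). An unadjusted p under 0.05 was reached by 1 of these 4 genes, against 23.6% of all genes. All 4 genes of astrocytes outside the telencephalon were below 0, with a median of -0.086, and 0 of them had such a p. In the list of 4 genes of astrocytes outside the telencephalon, Agt, the angiotensinogen gene, was at 49.6, 35.6 and 14.8 CPM in Phf21bΔ4/Δ4 mice and at 54.4, 49.4 and 46.5 CPM in Phf21b+/+ mice (log2 fold change -0.75, SE 0.41, FDR 0.29). Slc6a11, a GABA transporter gene, was the highest (-0.02, SE 0.25, FDR 0.96). Phf21bΔ4/Δ4 mouse 6 was the lowest mouse for both Agt and Slc6a11, at 14.8 and 89.3 CPM.

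**Figure D4:**
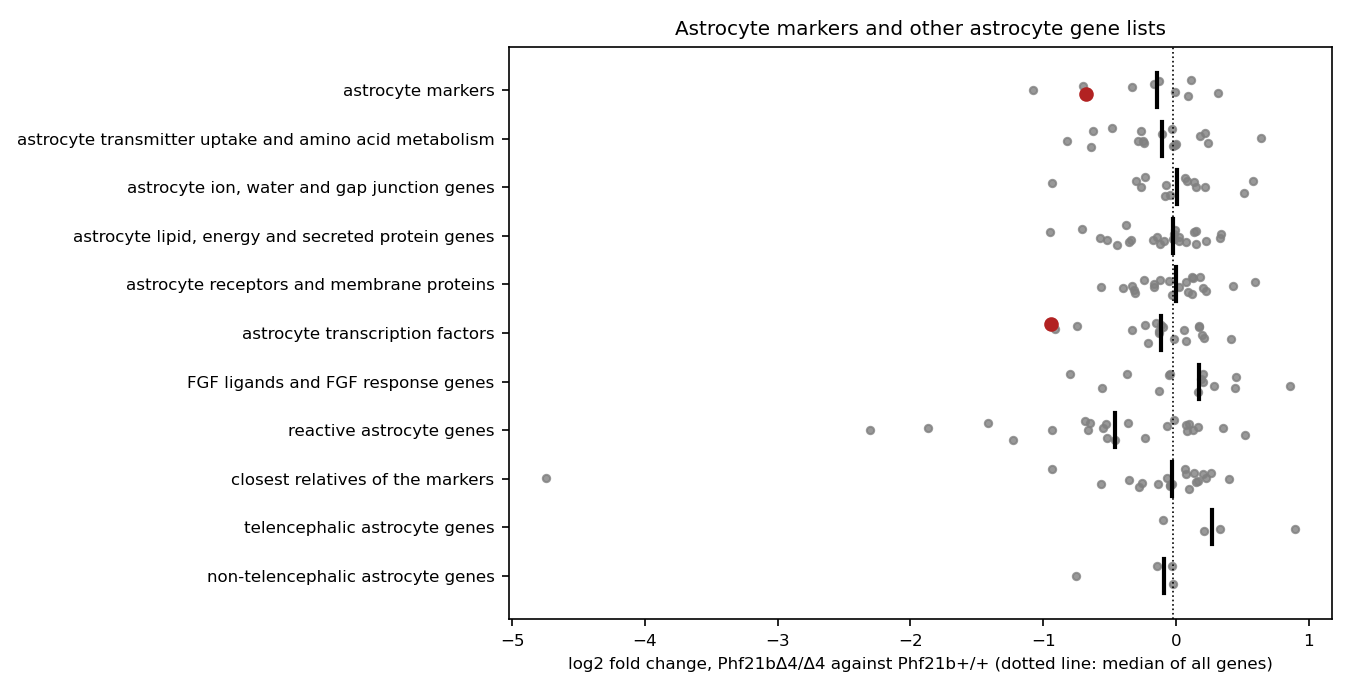
Log2 fold change of Phf21bΔ4/Δ4 against Phf21b+/+ mice (horizontal axis) for each gene of the astrocyte markers and of 10 other astrocyte lists; grey points are genes not called, red points are called genes, black bars are list medians and the dotted line is the median of all genes (-0.019). The 2 red points are Aqp4 and Id3, and the median of the reactive list (-0.461) lies lowest.

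Markers of neighbouring regions also differed between the genotypes. The 11 genes of the medial habenula, a nucleus just outside the hippocampus, summed to 12.7 to 19.2 CPM in Phf21bΔ4/Δ4 mice and to 171 to 228 CPM in Phf21b+/+ mice, and 10 of them were called lower. The defining transcription factor gene Pou4f1 was at 0.0843 CPM or less in Phf21bΔ4/Δ4 mice, under the CPM of 3 reads, and at 12.1 to 20.6 CPM in Phf21b+/+ mice. Of 6 thalamus genes 2 were called lower, Tcf7l2 and Shox2, and the list summed to 68.6 to 167 CPM and 166 to 283 CPM, with a slight overlap. The division by medial habenula RNA falls exactly between the genotypes, so genotype and the share of habenular tissue cannot be told apart for Aqp4 or any other marker.

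Ventricle-lining cells, which share Vim, Aqp4, S100b and Sox9 with astrocytes, varied more. The 6 ependymal genes summed to 37.1, 15.6 and 49.2 CPM in Phf21bΔ4/Δ4 mice 2, 3 and 6 and to 51.9, 173 and 128 CPM in Phf21b+/+ mice 5, 7 and 8. All 6 had a log2 fold change below 0, with a median of -1.85 and an unadjusted p under 0.05, and none was called. Choroid plexus genes summed to 15863 CPM in Phf21b+/+ mouse 7, to 992 CPM in mouse 8, to 31.8 CPM in mouse 5 and to 27.0 to 85.7 CPM in Phf21bΔ4/Δ4 mice, and 1 of the 8, Otx2, was called lower. Phf21b+/+ mouse 5 was thus close to the Phf21bΔ4/Δ4 mice in both lists, and it was picked out after the values were seen. For neighbouring regions it was not close to them. Its medial habenula genes summed to 171 CPM (12.7 to 19.2 CPM in Phf21bΔ4/Δ4 mice) and its thalamus genes to 283 CPM (68.6 to 167 CPM). Among the markers that ependymal cells share, mouse 5 lay inside the Phf21bΔ4/Δ4 range for Sox9 (20.2 CPM) and S100b (131 CPM). It was above every Phf21bΔ4/Δ4 mouse for Aqp4 (391 against at most 255 CPM), Gfap (497 against at most 443 CPM) and Vim (52.3 against at most 42.1 CPM). With mouse 5 as the only control, a setting chosen after seeing the data, the log2 fold change of Aqp4 was -0.71. Vim was then at -0.78, Gfap at -0.64, S100b at -0.059 and Sox9 at -0.012. A single control shows no spread between Phf21b+/+ mice, so these are effect sizes only and cannot rank the markers. The part of ventricle-lining cells in these values was not tested.

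Neuron genes were above 0 in 10 of 10 cases (median 0.427) and summed to 8185 to 9667 CPM in Phf21bΔ4/Δ4 mice and to 6074 to 7778 CPM in Phf21b+/+ mice, without overlap, and none was called. Oligodendrocyte genes had a median of -0.167 and overlapped in sum, at 6226 to 9486 CPM and 7472 to 10303 CPM, with mouse 6 the highest of the Phf21bΔ4/Δ4 mice. Oligodendrocyte precursor genes summed to 305 to 372 CPM and 264 to 278 CPM, and microglia genes to 488 to 555 CPM and 500.3 to 540 CPM. Of the cells that also make Vim, ependymal and leptomeningeal genes had medians below 0 (-1.85 and -0.620) and endothelial and mural genes medians above 0 (0.339 and 0.729). Of the 6 listed leptomeningeal genes 5 had a log2 fold change below 0, with Slc22a6 at -1.21 (SE 0.44, FDR 0.18), Col1a2 at -1.12 (SE 0.39, FDR 0.17) and Col1a1 at -0.82 (SE 0.33, FDR 0.20), and the exception, Dcn, was at 152 and 101 CPM in Phf21bΔ4/Δ4 mice 2 and 3 and at 12.8 CPM or less in the other mice. Genes of adult neural stem and progenitor cells, whose radial glia in the dentate gyrus carry Gfap and Vim, overlapped in sum (170 to 206 CPM and 171 to 238 CPM). No gene of the neuron, oligodendrocyte, precursor, microglia, endothelial, mural, leptomeningeal or stem cell lists was called by limma. In that order, an unadjusted p under 0.05 was reached by 5 of 10, 0 of 10, 3 of 6, 1 of 10, 3 of 10, 4 of 6, 3 of 6 and 1 of 7 of them. The share over all genes was 23.6%. The part of any of these cell types in the values of the markers was not tested.

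**Figure D5:**
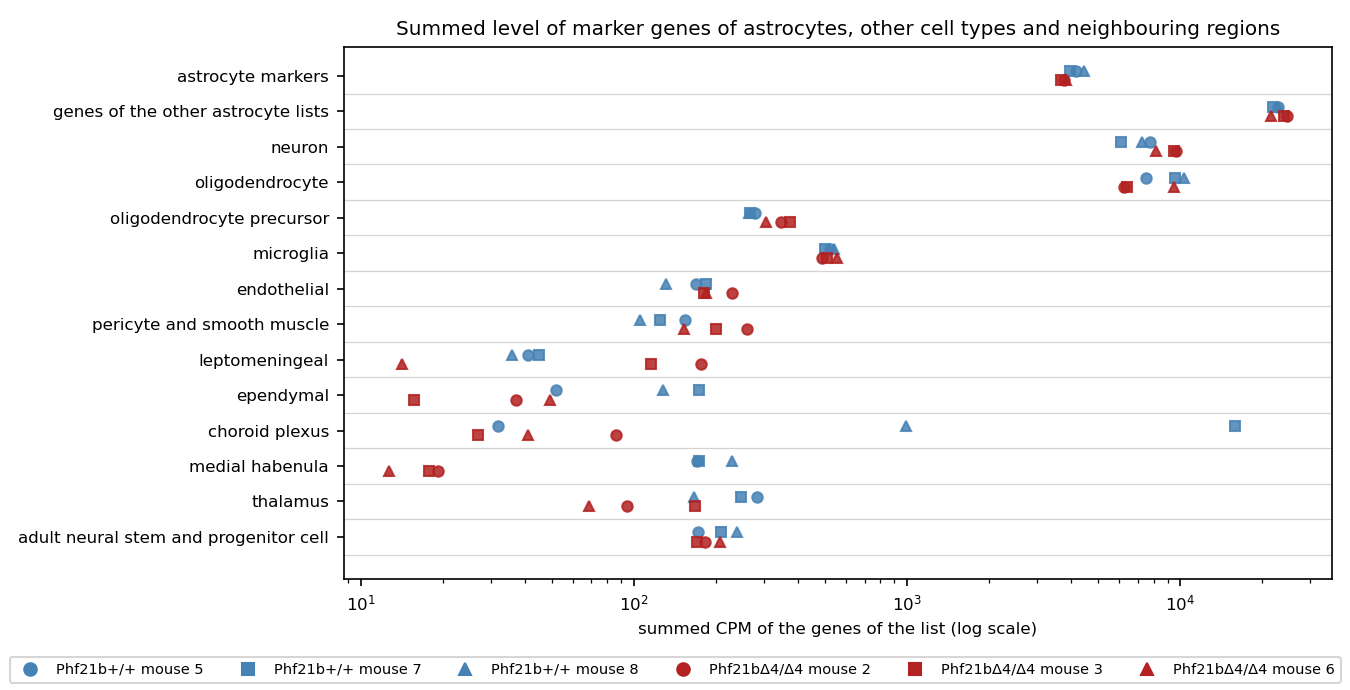
Summed CPM of marker lists (horizontal axis, log scale) in each mouse for astrocytes, other cell types and neighbouring regions; blue points are Phf21b+/+ and red points Phf21bΔ4/Δ4 mice. The summed astrocyte markers lie at 3676 to 3818 CPM and 3940 to 4434 CPM, the medial habenula genes separate widely, and the choroid plexus genes reach 15863 CPM in Phf21b+/+ mouse 7.

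Summed over the 10 genes, the astrocyte markers gave 3748, 3676 and 3818 CPM in Phf21bΔ4/Δ4 mice 2, 3 and 6 and 4162, 3940 and 4434 CPM in Phf21b+/+ mice 5, 7 and 8. Glul and Aldoc carry most of this sum, but each of them overlapped between the genotypes. The sum also holds Gfap (mean 330 CPM in Phf21bΔ4/Δ4 mice and 520 CPM in Phf21b+/+ mice) and Aqp4 (240 and 382 CPM), which did not overlap. The 147 genes of the other lists, among them genes that other cells express strongly such as Aldoa at 1718 to 2278 CPM, summed to 21443 to 24643 CPM in Phf21bΔ4/Δ4 mice and to 21942 to 22863 CPM in Phf21b+/+ mice, which overlapped.

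The mean of the 10 markers over the 6 mice, each marker centred on its own mean log2 CPM, was matched with 12956 other genes. The closest were the ribosomal protein gene Rps26 (Pearson's r = 0.995), the fructokinase gene Khk (0.991), the mitochondrial ribosomal protein gene Mrpl32 (0.989), Zfyve19 (0.989) and the chondromodulin gene Cnmd (0.988). Of these Cnmd alone was called, at 2.61, 1.52 and 2.91 CPM in Phf21bΔ4/Δ4 mice and 6.45, 10.6 and 13.7 CPM in Phf21b+/+ mice (log2 fold change -2.11, SE 0.36, FDR 0.081). With 6 points that share their libraries and fall into the genotypes, 415 genes had an r above 0.9, so the likeness is a description only.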

How the data were processed

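RNA-seq of hippocampal tissues from 3 Phf21bΔ4/Δ4 and 3 Phf21b+/+ mice was analysed. The authors sequenced ribosomal RNA-depleted libraries with single-end reads, trimmed them with Trimmomatic 0.39, mapped them to GRCm38 with STAR 2.7.3a, counted them with featureCounts of Subread 1.6.4, kept genes reaching 1 CPM in 2 or more samples and scaled to effective library size in edgeR. The deposited values are log2 CPM of 14477 genes. CPM was recovered by removing the prior count (0.1 reads on average), and all values gave whole reads within 0.1. Depth was 20495605 to 24881257 reads per mouse.

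As the deposited unit is log2 CPM, limma 3.58.1 (R 4.3.3) on these values was chosen as the main test and run on all genes with a mean-dependent prior variance, 6 mice and no covariate, with Benjamini-Hochberg FDR. The authors tested with edgeR, and their thresholds, FDR under 0.1 and fold change above 1.3, were kept. limma voom on the recovered reads and other settings were alternatives. The fit was also run on simulated counts, with the same relative spread for all genes and no differences in dissection. That run checks the code only and does not show how the fit behaves on these data.

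The markers and lists were chosen with earlier results of these data known. Text names all 10 markers, every called gene of an astrocyte list, its most positive and most negative genes (mean log2 CPM 1 or more), and the 5 genes most like the markers. Other genes of the lists were named after their values were seen. Exon lengths and gene positions came from GENCODE M21 on GRCm38, promoters from RefSeq on GRCm38.p6. Some genes that this rule selects are not reported here.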

Additional observations from a re-analysis of the deposited data

How the results depend on the processing

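Of the values of the 10 markers recomputed under other settings, 140 kept their direction and side of the threshold, 7 changed sign, 6 passed the threshold and 7 no longer did. The count of called markers, 1 at first, was 0 with the same prior variance for all genes, at an FDR under 0.05, at a fold change above 2 and with Phf21b+/+ mouse 5 as the only control (an alternative chosen after seeing the data), 4 with weighted mice, and 0 to 4 when 1 mouse was left out. The count of called genes of the other astrocyte lists, also 1, was 0, 0, 0, 0 and 34 under the same settings and 0 to 23 when 1 mouse was left out. Over all genes, 176 were called at first. The count was 75 with the same prior variance, 3549 with weighted mice, 101 at a mean log2 CPM of at least 1, 25 at an FDR under 0.05, 90 at a fold change above 2, 0 with mouse 5 as the only control, and 9 (without Phf21b+/+ mouse 8) to 2830 (without Phf21bΔ4/Δ4 mouse 6) when 1 mouse was left out. The weights ranged from 0.343 for Phf21bΔ4/Δ4 mouse 6 to 4.63 for Phf21b+/+ mouse 8, so that fit rests largely on 1 control. limma voom on the recovered reads called 131 genes, with Aqp4 again the called marker. The values that changed sign were those of Gja1 (0.078 with weighted mice, 0.047 after centring on the median, and -0.034 to 0.056 when 1 mouse was left out), Aldh1l1 (-0.026 with mouse 5 as the only control) and Aldoc (-0.18 under quantile normalization). The median of all genes moved from -0.019 to 0.019 under quantile normalization and to 0.03 after centring. The cause of these changes was not tested. No paired analysis was possible because the labels do not give the litter of each mouse or any pairing of the mice. With 3 mice a genotype and no record of dissection, sex or age for each mouse, differences smaller than the intervals given were not detectable.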
